A study of Homo sapiens with 12 samples.

Results

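Baseline gene expression was compared between DOHH2 and TMD8, a pair of human lymphoma cell lines, in the arrays that received only DMSO, the solvent used as vehicle. The arrays were chosen by their titles, which gave 3 DOHH2 arrays and 3 TMD8 arrays, 6 of the 12 arrays of the series. DOHH2 is a B cell lymphoma line usually classed with the germinal centre type, and TMD8 is a diffuse large B cell lymphoma line usually classed with the activated B cell type. The other 6 arrays, also 3 per line, had received ST5589 at 300 nM, a compound derived from ST1926, an atypical retinoid. Those arrays enter here through the shared estimate of the spread between arrays and as a repeat of the line difference. The labels name no genotype. How long the cells were exposed, and whether the arrays of a group came from separate cultures, is not stated in the labels. The p-values therefore reflect the array-to-array spread alone, some of which may be technical. Each group is grown in vitro from 1 established line, so a difference holds for this pair of lines and not for the lymphoma types they are classed with. DOHH2 and TMD8 were on different chips, and line and chip thus cannot be told apart in any result below.

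Germinal centre B cells proliferate and mutate their antibody genes under the control of BCL6, and leave this state for the plasma cell fate under IRF4, PRDM1 and XBP1. Activated B cell type lymphomas are known for signalling that starts at the B cell receptor or at Toll-like receptors and runs through NF-kB, with autocrine cytokines acting through STAT3 and interferon regulators. Plasma cell differentiation enlarges the endoplasmic reticulum, where antibody chains are folded and joined.

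Expression was measured on single-colour Illumina beadchips and is given as normalized log2 intensity, on which a difference of 1 is a 2-fold difference. Differences are DOHH2 minus TMD8 on this log2 scale, with standard errors from limma after the ± sign. A value in brackets after a gene, or after the word by, is such a log2 difference. A gene was called at a limma adjusted p (Benjamini-Hochberg, over all 11419 genes tested) under 0.05. In the 6 DMSO arrays 39.2% to 46.1% of the probes lay above background, and the lowest log2 level above background was 6.15 to 6.24. The DMSO array numbered 1 stood apart in each line. Over all genes it correlated at 0.985 and 0.987 with the other DOHH2 arrays, against 0.996 between those, and in TMD8 at 0.986 and 0.987, against 0.997. Without both of these arrays the counts given next were 6668 and 1677 in place of 6149 and 1534. DOHH2 ST5589 array 2 carried 5.08% (median over 26 probes) of the signal of probes bright in TMD8 only. In the DOHH2 DMSO arrays the same measure was -0.0183% to 0.0266%. That array widens the standard errors of genes silent in DOHH2. For GZMB, for example, the standard error was 0.44, and 0.12 in a fit without that array.

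The B cell label was checked against marker genes. Of 8 B cell markers with a probe, 6 were above background in all 3 DOHH2 arrays and 7 in all 3 TMD8 arrays, and the summed normalized intensity was 5111 to 5361 in DOHH2 and 14444 to 15896 in TMD8. PAX5, a defining B cell factor, was above background in 0 of 6 arrays, and CD72 in 0 of 3 DOHH2 arrays. Whether the array reports PAX5 RNA reliably was not tested, so this does not show that the lines lack PAX5. The RNA was bulk RNA, so fewer cells that express a gene and less of its RNA per cell cannot be told apart. Of 8 T and NK cell markers, 0 were above background in all arrays of either line. Of 7 myeloid markers 1 was above background in all DOHH2 arrays and 2 in all TMD8 arrays, and of 9 stromal and epithelial markers 1 in DOHH2 and 2 in TMD8.

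The lines differed over a large part of the measured genes. Of 11419 genes, 6149 (53.8%) were called, 2982 (26.1%) higher in DOHH2 and 3167 (27.7%) lower. Requiring also a 2-fold difference left 1534 genes (13.4%), 690 (6.04%) higher and 844 (7.39%) lower. The median log2 difference over all genes was -0.02, with an interquartile range of -0.34 to 0.32 and a median standard error of 0.11. The arrays of the lines did not overlap for 6736 genes (59%), so a lack of overlap does not by itself set a gene apart. Above background in all arrays of 1 line and in 0 arrays of the other were 331 genes in DOHH2 and 620 genes in TMD8. Of these, 117 and 210 were called with at least a 2-fold difference. The share of probes above background was 39.2% to 40.9% in the DOHH2 DMSO arrays and 40.9% to 46.1% in the TMD8 DMSO arrays. Where genes had to be above background in all 12 arrays, 4601 of 8678 were called, 51.2% of them higher in DOHH2, against 48.5% above. At least 2-fold were 1056, of which 48.8% were higher, against 45%. The excess of lower genes was thus not seen among the called genes of that set. This filter also drops genes silent in 1 line, so it cannot separate detection from expression. A difference of at least 8-fold was called for 30 genes higher and 87 genes lower in DOHH2.

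**Figure D1:**
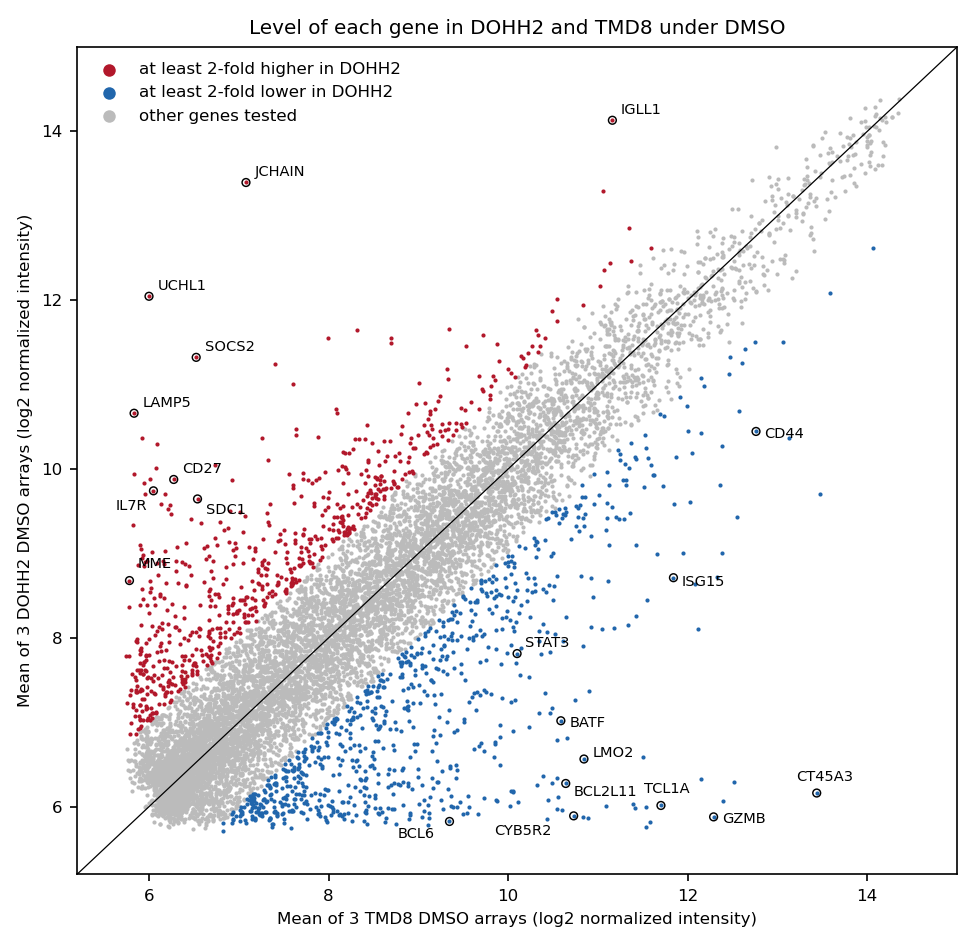
Mean log2 normalized intensity of each gene in 3 DOHH2 DMSO arrays (vertical axis) and 3 TMD8 DMSO arrays (horizontal axis). Red and blue points are the genes called at least 2-fold higher and lower in DOHH2, grey points the other genes tested, and the line marks equal levels; XIST and Y-linked genes are left out. JCHAIN and UCHL1 lie farthest above the line and CT45A3 and GZMB farthest below it.

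The largest difference in favour of DOHH2 was in JCHAIN, the peptide that joins IgA and IgM into polymers. It measured 13.37, 13.36 and 13.45 in the DOHH2 arrays, against 7.09, 7.19 and 6.96 in the TMD8 arrays. The arrays of the lines did not overlap, with a log2 difference of 6.32 ± 0.091 (limma adjusted p = 9.2e-15). UCHL1, a ubiquitin hydrolase of neurons that is also found in germinal centre B cells, measured 11.95, 12.06 and 12.12 in the DOHH2 arrays, against 5.93, 5.998 and 6.07 in the TMD8 arrays. It was not well above background in any TMD8 array, so the difference is given as at least 58.8-fold (limma adjusted p = 5.1e-15). LAMP5, a lysosome-associated membrane protein, was likewise seen in DOHH2 only (at least 22.5-fold), as were BBOX1, an enzyme of carnitine synthesis (at least 18.3-fold), IGFBP2, a binding protein of insulin-like growth factors (at least 17.5-fold), and INA, a neuronal intermediate filament (at least 13.6-fold). MGMT, the DNA repair enzyme that removes alkyl groups from guanine, measured 10.08, 9.49 and 9.53 in DOHH2 and 6.03, 5.94 and 5.90 in TMD8, at least 11.5-fold higher in DOHH2. AUTS2, PVRIG and CHST15, called above background in DOHH2 only, were at least 14.3-fold, 12.6-fold and 13.1-fold higher. LY6E (3.84 ± 0.17) and MLLT11 (3.57 ± 0.086) were measured in both lines.

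The largest differences in favour of TMD8 included cancer-testis genes, which are normally limited to germ cells. CT45A3 measured 6.27, 6.17 and 6.04 in the DOHH2 arrays, against 13.45, 13.42 and 13.44 in the TMD8 arrays, and was above background in 1 of 3 DOHH2 and 3 of 3 TMD8 arrays. The fitted log2 difference was -7.28 ± 0.73 (limma adjusted p = 1.4e-06), further probes gave -6.80 and -6.64, and the standard error was 0.08 without the DOHH2 ST5589 array that carried TMD8 signal. All 5 CT45A genes tested were lower in DOHH2, and so was MAGEA9B (at least 29.1-fold; further probe -3.38). These genes lie on the X chromosome as near-identical copies, so which copy a probe reports is uncertain. GZMB, the granule protease granzyme B, measured 6.10, 5.77 and 5.76 in the DOHH2 arrays, against 12.46, 12.18 and 12.23 in the TMD8 arrays. It was not well above background in DOHH2 and was at least 66.6-fold lower there (limma adjusted p = 2.6e-08), while of the 8 T and NK cell markers CD3E, CD3G, CD7, NKG7 and GNLY were above background in 0 arrays of either line, CD3D and CD8A each in 0 of 3 DOHH2 and 1 of 3 TMD8 arrays, and CD2 in 2 of 3 DOHH2 and 2 of 3 TMD8 arrays. TCL1B, a neighbour of the AKT coactivator TCL1A, measured 6.28, 6.24 and 6.34 in DOHH2 and 12.22, 12.71 and 12.63 in TMD8 (-6.23 ± 0.40). Its DOHH2 values lay close to the lowest levels above background in those arrays, 6.21 to 6.24, so the size of the difference is uncertain.

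Further genes with a level in TMD8 and none well above background in DOHH2 were YBX3, a cold-shock domain protein (at least 39.5-fold lower in DOHH2), TRPM4, a calcium-activated cation channel (at least 40.6-fold), GTSF1, a factor of the piRNA pathway (at least 39.5-fold), CD36, a fatty acid and scavenger receptor (at least 25.2-fold), and PARM1 (at least 24.3-fold). NAPSB, a transcribed pseudogene, and TPM2, a tropomyosin, were measured in both lines and were lower in DOHH2 (-5.82 and -4.92), with -4.10 from a further NAPSB probe and -4.72 and -2.71 from further TPM2 probes.

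Genes of the germinal centre stage did not separate the lines in a single direction. Of 45 genes on the list, 40 were tested, 17 (42.5%) were called higher and 16 (40%) lower in DOHH2, with a median of 0.10. Over all genes the shares were 26.1% and 27.7% and the median -0.02. At least 2-fold differences were found for 13 genes higher and 11 lower. MME, CD38 and CD27 were higher in DOHH2. MME, which encodes CD10, measured 8.46, 8.90 and 8.67 in the DOHH2 arrays, against 5.80, 5.76 and 5.78 in the TMD8 arrays, at least 5.69-fold higher in DOHH2 (limma adjusted p = 1.0e-10). CD38, an ectoenzyme of germinal centre and plasma cells, measured 9.20, 8.95 and 8.92 in DOHH2 and 6.27, 6.11 and 6.17 in TMD8, a difference of 2.84 ± 0.095, and was above background in 3 of 3 DOHH2 and 2 of 3 TMD8 arrays. CD27, a TNF receptor family member of germinal centre, memory and plasma cells, measured 9.90, 9.79 and 9.93 in DOHH2 and 6.36, 6.17 and 6.29 in TMD8 (3.60 ± 0.089). For these 3 genes all DOHH2 arrays lay at least 2 log2 units above all TMD8 arrays. VPREB3, a chaperone of antibody light chains in precursor and germinal centre B cells, and STAP1, an adaptor downstream of the B cell receptor, were higher by 2.71 and 2.94, VPREB3 being above background in 3 of 3 DOHH2 and 2 of 3 TMD8 arrays.

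BCL6, LMO2 and TCL1A were lower in DOHH2. BCL6, the master repressor of the germinal centre, measured 5.78, 5.88 and 5.80 in the DOHH2 arrays, against 9.40, 9.25 and 9.39 in the TMD8 arrays. It was not well above background in any DOHH2 array, and was at least 8.66-fold lower there (limma adjusted p = 6.5e-11). LMO2, a LIM-only cofactor used as a germinal centre marker, measured 6.67, 6.39 and 6.63 in DOHH2 and 10.97, 10.81 and 10.75 in TMD8, a difference of -4.28 ± 0.18. TCL1A measured 6.09, 6.09 and 5.86 in DOHH2 and 11.64, 11.74 and 11.73 in TMD8, at least 44.3-fold lower in DOHH2. No array of either line reached the range of the other line for BCL6, LMO2 or TCL1A, as was the case for 59% of all genes.

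CXCR5, the chemokine receptor that guides B cells to follicles, was at least 12.5-fold lower in DOHH2 (means 6.06 ± 0.14 in DOHH2 and 9.88 ± 0.27 in TMD8, SD, n = 3 each), with smaller differences of -1.22 and -0.90 from its further probes. RGS13, a regulator of chemokine receptor signalling in germinal centre cells, was at least 9.37-fold lower, with -1.08 from a further probe. SERPINA9 (-1.28 ± 0.073) and MYBL1 (not well above background in DOHH2, at least 1.52-fold), both germinal centre markers of cell-of-origin classifiers, were lower too. MME and ASB13, markers of the same side of those classifiers, were higher. Of the 5 tested genes of that side, 2 (40%) were higher and 2 (40%) lower, with a median of 0.04. The shares of all genes were 26.1% and 27.7%. EZH2, the histone methyltransferase of proliferating germinal centre cells, was higher by 0.36 on the log2 scale. The summed intensity of 8 germinal centre markers was 1114 to 1243 in DOHH2 and 3708 to 4482 in TMD8. For 9 markers of activated B cells and plasmablasts the sum was 7890 to 9013 in DOHH2 and 18043 to 19305 in TMD8. The sum of the B cell markers given above was lower in DOHH2 as well. A lower sum was therefore not particular to the germinal centre markers, and such sums are weighted towards the brightest probes. BCL6, LMO2, TCL1A and RGS13 thus go against the usual class of DOHH2, while MME, CD38, CD27, VPREB3 and STAP1 do not. GCSAM, a further germinal centre marker, was above background in 3 of 3 DOHH2 and 0 of 3 TMD8 arrays. The list gives no single direction, and the lines are called here by their names only.

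Markers of activated B cells and plasmablasts were mostly lower in DOHH2. Of 29 tested, 6 (20.7%) were higher and 17 (58.6%) lower, with 3 and 15 past 2-fold and a median of -1.002. Of the 7 tested genes of the activated B cell side of cell-of-origin assays, 2 (28.6%) were higher and 5 (71.4%) lower. Over all genes the shares were 26.1% and 27.7%. CYB5R2, a cytochrome b5 reductase used in those assays, measured 5.92, 5.94 and 5.81 in the DOHH2 arrays, against 10.51, 10.79 and 10.89 in the TMD8 arrays, at least 22.6-fold lower in DOHH2 (limma adjusted p = 2.8e-10). BATF, an AP-1 factor of lymphocyte activation, measured 7.48, 6.72 and 6.85 in DOHH2 and 10.06, 10.87 and 10.83 in TMD8 (-3.57 ± 0.26). IRF4, the regulator of activation and plasma cell fate, measured 9.24, 9.99 and 9.79 in DOHH2 and 11.17, 10.70 and 10.60 in TMD8, a difference of -1.15 ± 0.20 (limma adjusted p = 2.6e-04). The arrays did not overlap for any of the 3 genes, as for 59% of all genes, and IRF4 was well above background in both lines.

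CD44, a hyaluronan receptor, was lower (-2.32), with -2.15 and -1.08 from further probes. PIM1 (-1.61 ± 0.14) and PIM2 (-1.35 ± 0.15), serine kinases that STAT signals induce, CCND2, cyclin D2 (-1.25 ± 0.10), ENTPD1, the ectonucleotidase CD39 (-1.36 ± 0.11), and FOXP1, a transcription factor with a raised level in activated B cell type lymphoma (-1.002 ± 0.11; further probes -1.19 and -0.13), were lower as well. PRDM1, the repressor that ends the B cell programme, measured 9.21, 9.53 and 9.71 in DOHH2 and 10.63, 10.43 and 10.41 in TMD8 (-1.01 ± 0.12). Its further probes gave -0.50, -0.25 and -0.35.

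Against this direction, 4 plasma cell genes of the list were higher in DOHH2. SDC1, which encodes the plasma cell marker CD138, measured 9.78, 9.57 and 9.59 in the DOHH2 arrays, against 6.51, 6.54 and 6.57 in the TMD8 arrays. The difference was 3.11 ± 0.11 (limma adjusted p = 5.8e-11), though a second SDC1 probe gave 0.008. XBP1, the factor that builds the secretory apparatus, measured 10.91, 10.95 and 10.99 in DOHH2 and 9.64, 9.70 and 9.79 in TMD8 (1.24 ± 0.085, with 1.48 from a second probe). TNFRSF17, the survival receptor BCMA of plasma cells, and TNFRSF13B, the related receptor TACI, were higher by 1.15 and 0.94.

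**Figure D2:**
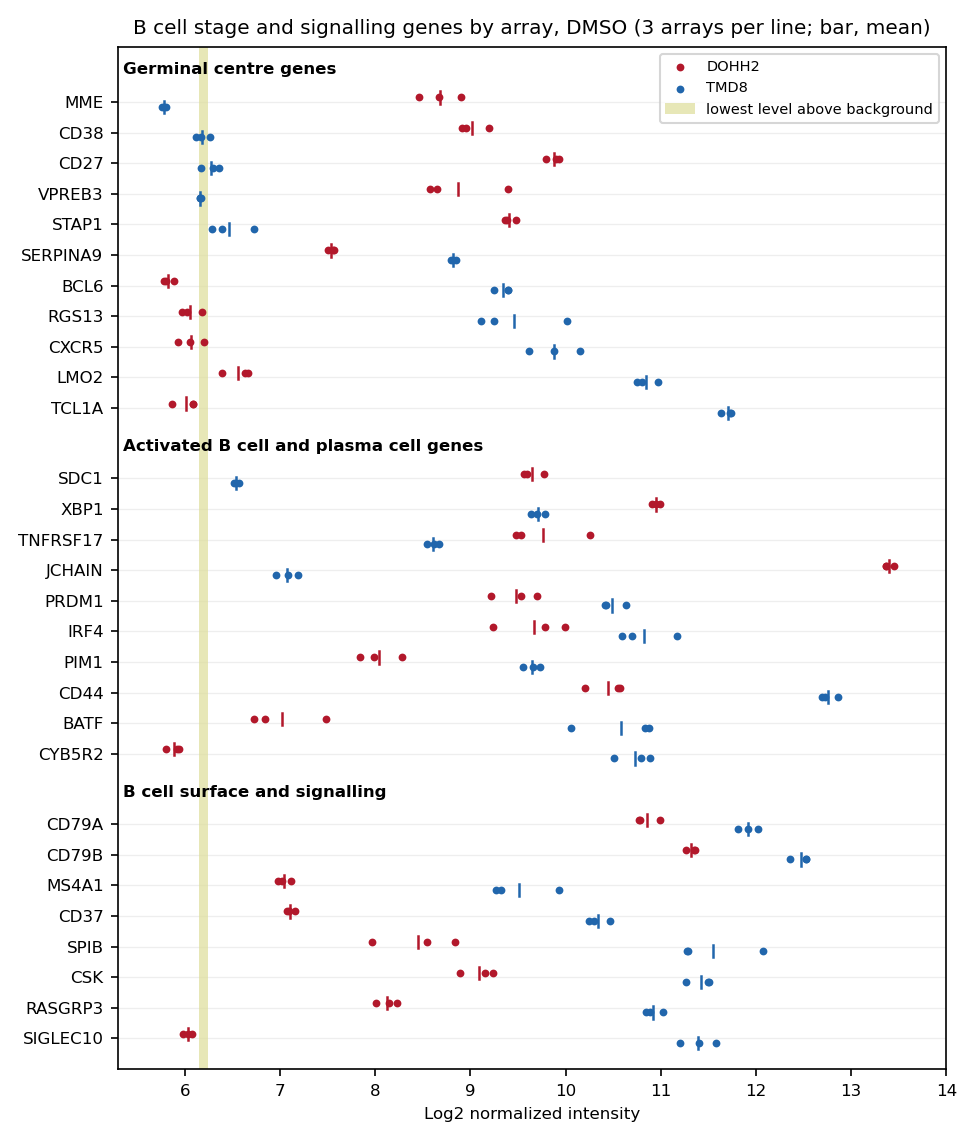
Log2 normalized intensity of 29 genes in the 3 DOHH2 (red) and 3 TMD8 (blue) DMSO arrays; each point is an array, each bar the mean of 3 arrays, and the shaded band spans the lowest levels above background. The arrays of the lines are separated for every gene drawn; SIGLEC10, CYB5R2, TCL1A and BCL6 lie at background in DOHH2, and MME at background in TMD8.

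Pan B cell genes were more often lower than higher in DOHH2. Of 18 tested, 5 (27.8%) were higher and 11 (61.1%) lower, against 26.1% and 27.7% of all genes, and the median was -0.72. CD37, a tetraspanin of mature B cells, measured 7.09, 7.07 and 7.15 in the DOHH2 arrays, against 10.47, 10.25 and 10.30 in the TMD8 arrays. The difference was -3.23 ± 0.14 (limma adjusted p = 2.4e-10), and a second probe gave -3.10. SPIB, an ETS factor of B cells and plasmacytoid dendritic cells, measured 7.96, 8.84 and 8.54 in DOHH2 and 12.07, 11.28 and 11.29 in TMD8 (-3.10 ± 0.27). MS4A1, which encodes CD20, measured 6.98, 7.12 and 7.02 in DOHH2 and 9.94, 9.32 and 9.27 in TMD8 (-2.47 ± 0.15), with -2.73 and -0.19 from its further probes.

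The B cell receptor subunits CD79A (-1.07 ± 0.11) and CD79B (-1.15 ± 0.11) were lower in DOHH2. CD79A averaged 10.85 ± 0.12 in DOHH2 and 11.92 ± 0.11 in TMD8 (SD, n = 3 each), but its further probes gave -0.40 and -0.11, and those of CD79B -1.15 and -1.56. FCRL5, an inhibitory receptor related to Fc receptors (-2.78, above background in 2 of 3 DOHH2 and 3 of 3 TMD8 arrays; further probe -1.02), and CD40, the receptor for T cell help (-1.24; further probe -0.48), were lower. BLK, a SRC family kinase of B cells (0.75 ± 0.13), CD52 (0.69 ± 0.14) and RALGPS2 (0.59 ± 0.097) were higher in DOHH2. Among 15 early B cell factors, 6 (40%, against 26.1% of all genes) were higher and 5 (33.3%, against 27.7%) lower. IGLL1, the surrogate light chain, was higher by 2.97, but its probe may also report near-identical light chain genes and a second probe gave 0.50. ID3, an inhibitor of E proteins, was higher by 1.32 and ID2, its relative, lower (-2.22), while TCF4, an E protein, was at -1.75.

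Genes of proximal B cell receptor signalling were mostly lower in DOHH2. Of 33 tested, 4 (12.1%, against 26.1% of all genes) were called higher and 21 (63.6%, against 27.7%) lower. By at least 2-fold 14 were lower and 1 was higher, and the median was -0.87. SIGLEC10, an inhibitory sialic acid receptor of the B cell surface, measured 5.98, 6.08 and 6.04 in the DOHH2 arrays, against 11.58, 11.40 and 11.20 in the TMD8 arrays, at least 35.8-fold lower in DOHH2 (limma adjusted p = 8.5e-10). RASGRP3, which couples the receptor to RAS, measured 8.23, 8.01 and 8.15 in DOHH2 and 10.85, 10.89 and 11.02 in TMD8 (-2.79 ± 0.12). CSK, the kinase that holds SRC family kinases inactive, measured 8.89, 9.23 and 9.15 in DOHH2 and 11.27, 11.51 and 11.50 in TMD8 (-2.33 ± 0.10). The arrays of the lines did not overlap for these genes, as for 59% of all genes. Both activating and inhibitory members were among the genes lower in DOHH2.

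The inhibitory receptors FCRL2 (-2.54 ± 0.11, above background in 2 of 3 DOHH2 and 3 of 3 TMD8 arrays; further probe -0.86) and FCRL3 (at least 5.16-fold; further probe -1.36) and the coreceptor CD22 (-0.87 ± 0.10) were lower in DOHH2. The members higher in DOHH2 included PTPN22, a phosphatase that dampens antigen receptor signalling (1.18 ± 0.11), PAG1, a membrane anchor of CSK (0.91 ± 0.094), and DOK3, an inhibitory adaptor (0.73 ± 0.10, above background in 3 of 3 DOHH2 and 1 of 3 TMD8 arrays). Among 42 genes of PI3K, mTOR and MAPK signalling the directions were even, 13 (31%, against 26.1% of all genes) higher and 14 (33.3%, against 27.7%) lower. DEPTOR, an inhibitor of mTOR (2.38 ± 0.15, above background in 3 of 3 DOHH2 and 1 of 3 TMD8 arrays), and FOXO3, a transcription factor that AKT inactivates (1.84 ± 0.16), were higher, and DUSP5, a phosphatase of ERK (-2.56 ± 0.12), and MAPK3, which encodes ERK1 (-1.69 ± 0.14), were lower.

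NF-kB target genes were mostly lower in DOHH2. Of 43 tested, 28 (65.1%, against 27.7% of all genes) were lower and 9 (20.9%) higher, 19 and 8 of them by at least 2-fold, with a median of -0.92. TNF, the cytokine itself, measured 6.16, 5.90 and 5.95 in the DOHH2 arrays, against 9.71, 10.28 and 10.08 in the TMD8 arrays. It was not well above background in DOHH2 and was at least 13.8-fold lower there (limma adjusted p = 2.7e-10). LTA, lymphotoxin alpha, measured 6.55, 6.33 and 6.44 in DOHH2 and 9.13, 9.61 and 9.56 in TMD8 (-2.996 ± 0.16). NFKBIZ, an inducible IkB protein of the nucleus, measured 8.92, 8.89 and 9.18 in DOHH2 and 11.67, 11.63 and 11.67 in TMD8 (-2.66 ± 0.13), but a second probe gave -0.26. TNF and LTA lie next to each other in the genome and each showed no overlap between the lines, as did 59% of all genes.

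IER3 (-2.60 ± 0.15, above background in 2 of 3 DOHH2 and 3 of 3 TMD8 arrays), the costimulatory ligand CD86 (-2.56 ± 0.11; further probes -2.24 and -0.96) and CFLAR, an inhibitor of caspase-8 (-2.40 ± 0.15), were also lower in DOHH2. A pair of inhibitors that the pathway induces itself had smaller differences. NFKBIA measured 10.90, 10.81 and 11.03 in DOHH2 and 11.09, 11.53 and 11.48 in TMD8 (-0.45 ± 0.15, a call lost in 4 of 19 alternatives), and TNFAIP3, which encodes A20, measured 7.76, 8.13 and 7.99 in DOHH2 and 8.41, 8.43 and 8.48 in TMD8 (-0.48 ± 0.098). IL6 was at least 2.61-fold lower in DOHH2, and IL10 was lower (-0.65) from a high level in both lines (11.47 ± 0.28 in DOHH2 and 12.12 ± 0.30 in TMD8, SD, n = 3 each). A smaller group of targets was higher in DOHH2. FSCN1, the actin bundling protein fascin, measured 9.86, 10.02 and 10.27 in DOHH2 and 6.75, 6.76 and 6.71 in TMD8 (3.31 ± 0.11), SLAMF1, a receptor of lymphocyte contacts, was at least 4.66-fold higher, and CCL3, a chemokine of B cell receptor activation, was higher by 2.32. CCL3 and CCL3L3 are near-identical copies, and their probes gave 2.32 and 2.43.

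The components of the pathway itself were more often lower than higher. Of 29 tested, 4 (13.8%) were higher and 14 (48.3%) lower, against 26.1% and 27.7% of all genes, 2 by at least 2-fold, with a median of -0.23. MYD88, the adaptor of Toll-like receptors (-0.81), the receptors TLR10 (-1.67; further probes -1.66 and -0.34) and TLR7 (-0.96), and RELB, a subunit of the noncanonical pathway (-0.92), were lower. TNIP1, a partner of A20, was lower (-1.49). CHUK, the kinase IKK alpha, and BIRC2, a ubiquitin ligase of TNF receptor signalling, were higher by 0.68 and 0.64.

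The promoters of TNFAIP3 and NFKBIA are shown because both genes are classical targets with matches to a kB element. The element was searched on both strands as GGG and TTTCC with any 2 bases between them, or its complement GGAAA and CCC, in the 250 bases before the gene start of RefSeq (GRCh38.p14). It was found in 7 of the 36 tested NF-kB targets that have a promoter in the RefSeq table (19.4%), and in 473 of all 27305 promoters (1.73%). It was found in 7 of the 24 such targets lower in DOHH2, 0 of the 6 higher and 0 of the 6 not called. Capitals mark the matches, which describe the letters and are not evidence of binding. The TNFAIP3 window is chr6:137867009-137867258, plus strand, and the NFKBIA window is chr14:35404750-35404999, minus strand, both written 5′ to 3′.
TNFAIP3: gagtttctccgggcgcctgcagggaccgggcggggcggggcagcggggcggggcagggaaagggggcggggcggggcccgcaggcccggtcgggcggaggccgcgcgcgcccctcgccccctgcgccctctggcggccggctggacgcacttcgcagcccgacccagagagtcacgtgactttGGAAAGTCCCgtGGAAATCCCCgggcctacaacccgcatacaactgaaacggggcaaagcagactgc
NFKBIA: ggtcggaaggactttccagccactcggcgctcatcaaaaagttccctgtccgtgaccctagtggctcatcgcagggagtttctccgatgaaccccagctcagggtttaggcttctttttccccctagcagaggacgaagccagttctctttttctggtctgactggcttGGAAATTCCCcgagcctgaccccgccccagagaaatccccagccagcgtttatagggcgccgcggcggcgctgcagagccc

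Among JAK-STAT genes, STAT3 was lower in DOHH2, and STAT5A, STAT5B and SOCS2 were higher. Of 32 tested, 8 (25%, against 26.1% of all genes) were higher and 19 (59.4%, against 27.7%) lower, with a median of -0.67. STAT3 measured 7.49, 8.01 and 7.94 in the DOHH2 arrays, against 10.01, 10.03 and 10.26 in the TMD8 arrays. The difference was -2.29 ± 0.17 (limma adjusted p = 7.1e-08), with -1.77 and -1.52 from further probes. SOCS2, a STAT5-induced inhibitor of cytokine signalling, measured 11.15, 11.38 and 11.43 in the DOHH2 arrays, against 6.55, 6.61 and 6.41 in the TMD8 arrays. It was higher in DOHH2 by 4.80 ± 0.13 (limma adjusted p = 6.1e-12), and a second probe gave 3.65. STAT5A measured 8.39, 8.76 and 8.85 in DOHH2 and 6.62, 6.49 and 6.74 in TMD8 (2.05 ± 0.14), and STAT5B was higher by 0.77.

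The receptors also divided between the lines. IL7R, the interleukin 7 receptor, measured 9.65, 9.73 and 9.85 in DOHH2 and 6.05, 6.06 and 6.04 in TMD8, at least 11.9-fold higher in DOHH2 (further probe 2.52), and IL6ST, the shared receptor chain gp130, was higher by 1.74. IL2RB, a receptor chain for interleukins 2 and 15, measured 6.10, 6.26 and 6.19 in DOHH2 and 9.73, 10.26 and 10.16 in TMD8 (-3.87 ± 0.15) and was above background in 1 of 3 DOHH2 and 3 of 3 TMD8 arrays, and IL21R, the receptor for interleukin 21, was at -2.92 ± 0.10, with smaller differences of -0.13 and -0.30 from further probes. BCL3, an atypical IkB protein that STAT3 induces (-2.50), PTPN1, a phosphatase of JAK kinases (-2.26), and SOCS1, a feedback inhibitor (-0.92), were lower.

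Interferon response genes were mostly lower in DOHH2. Of 53 tested, 36 (67.9%, against 27.7% of all genes) were lower and 8 (15.1%, against 26.1%) higher. At least 2-fold lower were 26, at least 2-fold higher 1, and the median was -0.996, which lay between -1.19 and -0.81 over all alternatives. ISG15, a ubiquitin-like modifier, measured 9.13, 8.62 and 8.39 in the DOHH2 arrays, against 11.63, 12.01 and 11.89 in the TMD8 arrays. The difference was -3.13 ± 0.17 (limma adjusted p = 2.7e-09). IFIT1, which binds foreign RNA ends, measured 7.61, 7.15 and 7.29 in DOHH2 and 10.28, 10.50 and 10.45 in TMD8 (-3.06 ± 0.16), though a second probe gave -0.40. MX2, an antiviral dynamin-like GTPase, and IFI27 were lower (-2.94 and -2.87). ISG15 was well above background in all 6 arrays. For these 4 genes the arrays of the lines did not overlap, as for 59% of all genes.

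IFI30, a lysosomal thiol reductase of antigen processing, measured 6.33, 6.36 and 6.34 in DOHH2 and 9.16, 9.50 and 9.58 in TMD8 (-3.07 ± 0.12). The genes higher in DOHH2 were led by IRF1, a factor that interferon gamma induces, which measured 9.39, 8.41 and 9.26 in DOHH2 and 7.35, 8.03 and 7.70 in TMD8 (1.32 ± 0.35), GBP4 (0.93 ± 0.097, above background in 3 of 3 DOHH2 and 1 of 3 TMD8 arrays), IFITM1, a membrane protein that restricts viral entry (0.93 ± 0.18), APOL3 (0.88 ± 0.074, above background in 3 of 3 DOHH2 and 2 of 3 TMD8 arrays) and IFI44 (0.76 ± 0.13). The other 3 members higher in DOHH2 differed by less.

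**Figure D3:**
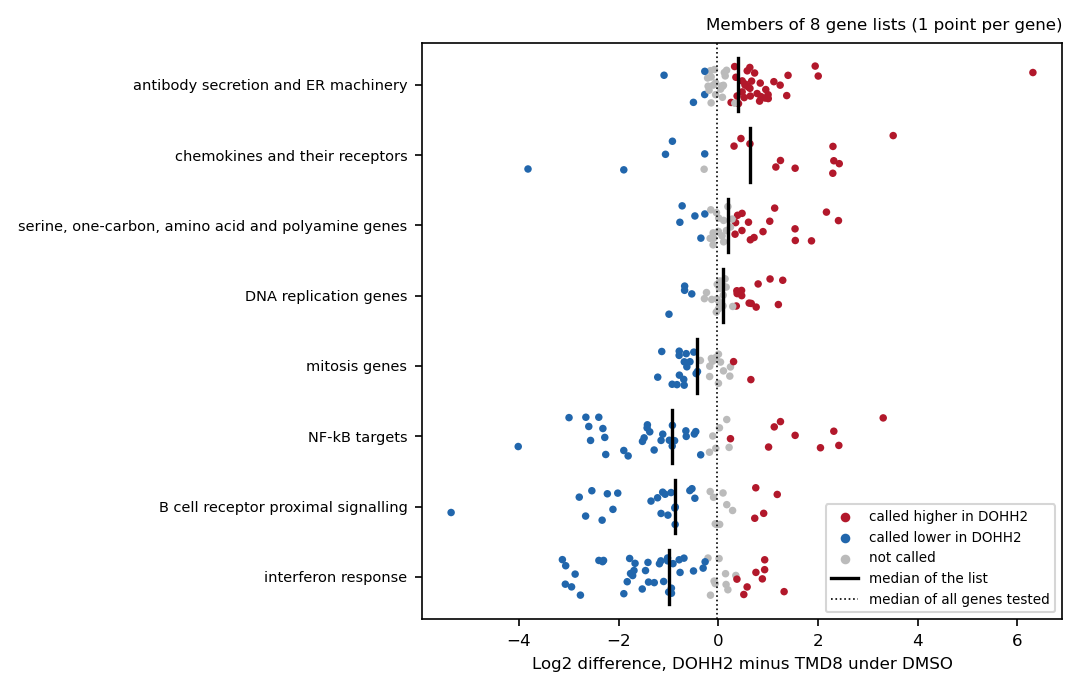
Log2 difference (DOHH2 minus TMD8 under DMSO) of each tested member of 8 gene lists; a point is a gene, red or blue where called and grey where not, spread vertically for legibility. Black bars are list medians and the dotted line is the median of all genes, -0.02; the medians run from 0.64 for chemokines and their receptors to -0.996 for the interferon response.

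The promoters of ISG15 and IFIT1 are shown because both genes had large differences and matches to the element that interferon factors bind. The interferon-stimulated response element was searched on both strands as GAAA and GAAA with any 2 bases between them, or its complement TTTC and TTTC, in the 250 bases before the gene start. It was found in 22 of the 40 tested list members with a promoter in the table (55%), and in 839 of all 27305 promoters (3.07%). Of the 27 such members lower in DOHH2, 14 held it, of the 6 higher in DOHH2, 3 held it, and of the 7 not called, 5 held it. The ISG15 window is chr1:1013247-1013496 and the IFIT1 window chr10:89392373-89392622, both on the plus strand of GRCh38.p14. Capitals mark the matches, of which the 2 in ISG15 overlap.
ISG15: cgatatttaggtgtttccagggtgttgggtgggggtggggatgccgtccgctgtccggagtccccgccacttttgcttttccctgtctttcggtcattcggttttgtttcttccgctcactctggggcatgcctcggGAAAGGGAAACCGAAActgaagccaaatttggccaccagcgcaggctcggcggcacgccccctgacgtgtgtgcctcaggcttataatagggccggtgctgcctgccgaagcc
IFIT1: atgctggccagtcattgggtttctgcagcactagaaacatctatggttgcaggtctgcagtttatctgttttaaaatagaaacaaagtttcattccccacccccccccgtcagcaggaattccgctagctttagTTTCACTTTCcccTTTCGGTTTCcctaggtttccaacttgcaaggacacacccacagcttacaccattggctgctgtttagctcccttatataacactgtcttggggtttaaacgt

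Genes of antibody secretion and of the endoplasmic reticulum were mostly higher in DOHH2. Of 55 tested, 32 (58.2%, against 26.1% of all genes) were higher and 4 (7.27%, against 27.7%) lower, with 8 higher and 1 lower by at least 2-fold and a median of 0.41. For comparison, of 14 genes often used as references for expression 42.9% were higher and 7.14% lower, with a median of 0.31. Beside JCHAIN and XBP1, EDEM1, which hands misfolded glycoproteins to degradation, measured 9.75, 10.46 and 10.37 in the DOHH2 arrays, against 8.24, 8.13 and 8.19 in the TMD8 arrays. The difference was 2.01 ± 0.20 (limma adjusted p = 1.7e-06). MZB1, a chaperone of antibody heavy chains in marginal zone B cells and plasma cells, measured 10.44, 10.31 and 10.31 in DOHH2 and 8.33, 8.49 and 8.41 in TMD8 (1.94 ± 0.13), with 0.75 from a second probe. The arrays did not overlap for either gene, as for 59% of all genes.

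HYOU1, a large chaperone of the same compartment, was higher by 1.40 (second probe 1.10), and SSR2, a subunit of the translocon-associated complex, by 1.37 (second probe 0.37). The rest of the genes higher in DOHH2 differed by less, so that most of the list moved by under 2-fold. KDELR1, the receptor that returns chaperones from the Golgi, measured 9.68, 9.24 and 9.70 in DOHH2 and 10.36, 10.73 and 10.79 in TMD8 (-1.09 ± 0.18), and HSPA5, the chief chaperone of the unfolded protein response, measured 8.28, 8.32 and 8.31 in DOHH2 and 8.80, 8.82 and 8.78 in TMD8 (-0.50 ± 0.10). SEL1L (-0.27) and SEC61B (-0.27) completed the 4 lower members. The call of SEC61B was lost in 10 of 19 alternatives, and that of HSPA5 in 1.

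The promoters of XBP1, higher in DOHH2, and HSPA5, lower in it, are shown because both hold the endoplasmic reticulum stress element. It was searched on both strands as CCAAT and CCACG with any 9 bases between them, or its complement CGTGG and ATTGG, in the 250 bases before the gene start. It was found in 7 of the 48 tested list members with a promoter in the table (14.6%), against 22 of all 27305 promoters (0.0806%). Of these 7, 3 were higher, 1 was lower and 3 were not called in DOHH2. The XBP1 window is chr22:28800570-28800819, minus strand, and the HSPA5 window chr9:125241344-125241593, minus strand. Capitals mark the matches, which are a description of the sequence.
XBP1: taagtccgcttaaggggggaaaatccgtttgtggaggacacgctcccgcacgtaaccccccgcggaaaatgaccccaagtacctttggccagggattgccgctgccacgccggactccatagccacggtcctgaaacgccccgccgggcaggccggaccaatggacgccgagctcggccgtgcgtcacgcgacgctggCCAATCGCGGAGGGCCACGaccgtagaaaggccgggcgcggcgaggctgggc
HSPA5: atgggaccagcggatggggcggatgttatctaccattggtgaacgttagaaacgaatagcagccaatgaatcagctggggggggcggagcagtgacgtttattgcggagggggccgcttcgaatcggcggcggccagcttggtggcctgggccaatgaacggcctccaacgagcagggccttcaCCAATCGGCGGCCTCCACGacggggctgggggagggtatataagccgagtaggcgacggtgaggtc

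Genes of chemokines and their receptors were more often higher than lower in DOHH2. Of 17 tested genes, 11 (64.7%) were higher and 5 (29.4%) lower, against 26.1% and 27.7% of all genes, with a median of 0.64. ACKR3, an atypical receptor that clears CXCL12, measured 9.23, 9.31 and 9.46 in the DOHH2 arrays, against 5.76, 5.81 and 5.89 in the TMD8 arrays, at least 8.96-fold higher in DOHH2 (limma adjusted p = 6.2e-12). CCL17, a T cell attractant, measured 9.28, 8.85 and 8.67 in DOHH2 and 6.63, 6.61 and 6.66 in TMD8 (2.30 ± 0.16), and CXCL9, an attractant that interferon gamma induces, was at least 4.37-fold higher. CCL22 (1.25 ± 0.13) and CCL5 (1.54 ± 0.14) were higher too. CCR7, the receptor for entry into lymph nodes, measured 8.33, 8.01 and 8.23 in DOHH2 and 9.72, 10.35 and 10.18 in TMD8 (-1.90 ± 0.18), lower in DOHH2 like CXCR5 above. CXCR4, the receptor for CXCL12, was at 0.45 ± 0.18, a call lost in 10 of 19 alternatives, and CXCL10 was lower (-0.92).

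Genes of sphingosine phosphate, purine and Galpha13 signalling hold B cells in follicles or let them leave. Among the 16 tested, 8 (50%, against 26.1% of all genes) were higher and 6 (37.5%, against 27.7%) lower. P2RY10 (2.58 ± 0.099) and S1PR4 (2.46 ± 0.19, above background in 3 of 3 DOHH2 and 2 of 3 TMD8 arrays), receptors for lysophospholipids, and GPR183, the oxysterol receptor that positions activated B cells (1.06 ± 0.11), were higher in DOHH2. P2RY8, a confinement receptor of the germinal centre, was lower (-0.92), and GNA13, the G protein it signals through, was higher by 0.58. RGS2 was lower (-1.82).

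The adhesion genes showed no common direction, with 12 (35.3%, against 26.1% of all genes) higher and 11 (32.4%, against 27.7%) lower of 34 tested. ICAM2, a ligand of the integrin LFA-1, measured 9.70, 9.34 and 9.36 in DOHH2 and 6.25, 6.18 and 6.29 in TMD8 (3.23 ± 0.12), while the LFA-1 subunits themselves were lower in DOHH2, ITGAL by at least 7.1-fold and ITGB2 with a difference of -1.98. ITGB1, the integrin beta 1 chain, was higher by 1.15. CD58, the ligand of the T cell adhesion receptor CD2, did not pass the test (0.0063 ± 0.16, limma adjusted p = 0.979).

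Of 22 tested genes of the TNF superfamily and its receptors, 12 (54.5%, against 26.1% of all genes) were higher and 6 (27.3%, against 27.7%) lower in DOHH2. The median was 0.38, and ran from 0.092 to 0.87 over the alternatives. TNFRSF1A, the TNF receptor of type 1, measured 8.13, 8.52 and 8.45 in DOHH2 and 5.70, 5.85 and 5.76 in TMD8, at least 4.59-fold higher in DOHH2, opposite in direction to its ligand TNF. TNFRSF21 (1.82 ± 0.13), TNFRSF14, the receptor HVEM (1.29 ± 0.16), and CD70, the ligand of CD27 (0.94 ± 0.16), were higher as well. FAS, the death receptor, was not well above background in TMD8 and did not pass the test (limma adjusted p = 0.0983). Costimulatory and checkpoint genes were even, with 8 (38.1%) higher and 8 (38.1%) lower of 21. CD320, the receptor for transcobalamin, was higher by 1.499, and the CD28 ligands CD80 and CD86 were lower (-1.29 and -2.56), CD80 being above background in 2 of 3 DOHH2 and 3 of 3 TMD8 arrays. LILRB1, an inhibitory receptor for MHC class I, was lower (-0.96) from a high level in both lines (11.50 ± 0.23 in DOHH2 and 12.46 ± 0.20 in TMD8, SD, n = 3 each).

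Of 20 tested MHC class II genes and regulators, 10 (50%) were higher and 5 (25%) lower in DOHH2, with a median of 0.27. Of 23 class I and peptide loading genes 11 (47.8%) were higher and 2 (8.7%) lower, with a median of 0.29. Over all genes the shares were 26.1% and 27.7%, and the median of 14 genes often used as references was 0.31, no smaller than those of the MHC lists. HLA-DRB1 measured 9.71, 9.78 and 9.62 in DOHH2 and 6.22, 6.10 and 6.22 in TMD8 (3.52 ± 0.10, above background in 3 of 3 DOHH2 and 2 of 3 TMD8 arrays), and HLA-DRB5 was at least 7.01-fold higher. HLA genes are near-identical and differ in sequence between people, so which gene or allele a probe reports is uncertain. HLA-DRA, the alpha chain of the DR molecule, measured 13.08, 12.98 and 12.93 in DOHH2 and 12.85, 12.65 and 12.61 in TMD8 (0.30 ± 0.10, a call lost in 5 of 19 alternatives; further probe 0.097), and CIITA, the master activator of class II, was higher by 0.34. HLA-DMA, which loads class II with peptide (-1.39), and MARCHF1, a ubiquitin ligase that removes class II from the surface (-2.32, above background in 1 of 3 DOHH2 and 3 of 3 TMD8 arrays), were lower. B2M, the shared light chain of class I, was at 0.33 ± 0.11, a call lost in 3 of 19 alternatives. HLA-B (1.14) and TAP2, a peptide transporter subunit (0.87), were higher, and PSMB10, an immunoproteasome subunit, was lower (-0.87).

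Genes of serine, one-carbon and amino acid metabolism were more often higher than lower in DOHH2. Of 37 tested, polyamine genes included, 16 (43.2%) were higher and 5 (13.5%) lower, against 26.1% and 27.7% of all genes, with 7 higher and 0 lower by at least 2-fold and a median of 0.19. Of the 14 reference genes 42.9% were higher and 7.14% lower, with a median of 0.31, so the list as a whole was no more shifted than those. Differences of at least 2-fold were called for 18.9% of the list and 7.14% of the reference genes. PHGDH, the enzyme that commits glycolytic carbon to serine, measured 11.55, 11.58 and 11.63 in the DOHH2 arrays, against 9.40, 9.91 and 9.84 in the TMD8 arrays. The difference was 1.87 ± 0.15 (limma adjusted p = 1.0e-07). PSPH, the last enzyme of that route, measured 8.76, 9.11 and 9.62 in DOHH2 and 7.62, 7.73 and 7.52 in TMD8 (1.54 ± 0.18), whereas PSAT1, the middle enzyme, measured 9.06, 9.15 and 9.25 in DOHH2 and 9.83, 9.98 and 9.95 in TMD8 (-0.77 ± 0.084). The steps of serine synthesis thus differed in opposite directions. MTHFD1L, of mitochondrial one-carbon metabolism (1.55 ± 0.13), CBS, which starts the conversion of homocysteine to cysteine (2.41 ± 0.11, above background in 3 of 3 DOHH2 and 1 of 3 TMD8 arrays), and PYCR1, an enzyme of proline synthesis (2.17 ± 0.17; further probes 0.34 and 0.59), were higher. SRM, spermidine synthase, was lower (-0.73).

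In central carbon metabolism most genes were not called. Of 29 glycolysis and lactate genes, 8 were higher and 3 lower (37.9% called, against 53.8% of all genes), and of 56 genes of oxidative phosphorylation and the TCA cycle 7 were higher and 16 lower (41.1% called). SLC2A5, the fructose transporter GLUT5, measured 7.95, 8.23 and 8.16 in the DOHH2 arrays, against 10.92, 11.31 and 11.32 in the TMD8 arrays. The difference was -3.07 ± 0.11 (limma adjusted p = 5.9e-11) and the next lowest member of its list, PFKP, was at -0.64. ENO2, an enolase, was higher by 1.197, and PFKP is a phosphofructokinase. ACO1, the cytosolic aconitase that also senses iron, measured 7.28, 7.18 and 7.39 in DOHH2 and 10.07, 9.91 and 9.80 in TMD8 (-2.64 ± 0.12). The electron transport genes UQCRC2 and SDHD were higher by 1.17 and 1.08, and SDHC lower (-1.02). Of 32 nucleotide synthesis genes 6 (18.8%, against 26.1% of all genes) were higher and 9 (28.1%, against 27.7%) lower. CTPS1, CTP synthase, was higher by 1.04 and CAD, which starts pyrimidine synthesis, lower (-0.93).

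Lipid genes differed in both directions. Of 39 tested, 11 (28.2%) were higher and 17 (43.6%) lower, against 26.1% and 27.7% of all genes. Of the 15 tested enzymes of cholesterol synthesis, 0 were higher and 10 lower in DOHH2, with a median of -0.53. Examples were MSMO1 (-0.99 ± 0.13; further probes -0.95 and -0.14) and NSDHL (-0.97 ± 0.19), both of sterol demethylation. FADS1, FADS2 and ELOVL6 of fatty acid desaturation and elongation were higher in DOHH2. FADS1, the delta-5 desaturase, measured 9.05, 9.83 and 9.61 in the DOHH2 arrays, against 6.99, 6.94 and 6.78 in the TMD8 arrays, a difference of 2.60 ± 0.16 (limma adjusted p = 1.2e-08). ELOVL6, which elongates palmitate, measured 9.07, 8.96 and 8.89 in DOHH2 and 6.97, 6.95 and 6.96 in TMD8 (2.01 ± 0.088), and FADS2, the delta-6 desaturase, was at least 2.15-fold higher. CPT1A, the carrier for mitochondrial fatty acid uptake, was at least 2.11-fold lower in DOHH2, though a second probe gave -0.27. PLIN2, a lipid droplet coat protein, was lower (-1.55).

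Of 42 tested detoxification genes, 13 (31%) were higher and 19 (45.2%) lower in DOHH2, against 26.1% and 27.7% of all genes. AKR1C3, an aldo-keto reductase, measured 9.43, 8.58 and 8.59 in DOHH2 and 5.94, 5.94 and 5.76 in TMD8, at least 6.48-fold higher in DOHH2. NQO1, a quinone reductase, was higher by 1.76, and NFE2L2, which encodes its regulator NRF2, by 1.09. MGST1, a microsomal glutathione transferase, measured 5.81, 5.78 and 5.97 in DOHH2 and 10.41, 10.43 and 10.47 in TMD8, at least 18.4-fold lower, with -2.62 and -0.80 from further probes. GSTM1 (-3.75 ± 0.13; further probes -2.39 and -2.41) and GSTM2 (-4.21 ± 0.16) were lower, but they are near-identical. GSTM2 was above background in 2 of 3 DOHH2 and 3 of 3 TMD8 arrays, and a second probe gave -0.31. CAT, catalase, was lower (-1.501).

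Apoptosis genes of the BCL2 family were more often lower in DOHH2, on the protective and on the lethal side. Of 21 tested, 3 (14.3%) were higher and 12 (57.1%) lower, against 26.1% and 27.7% of all genes, with a median of -0.41. BCL2L11, which encodes the killer BIM, measured 6.31, 6.25 and 6.26 in the DOHH2 arrays, against 10.31, 10.91 and 10.71 in the TMD8 arrays. The difference was -4.37 ± 0.14 (limma adjusted p = 2.5e-11), with -3.42 and -2.56 from further probes. The DOHH2 values lay close to the lowest levels above background in those arrays, 6.21 to 6.24, so the size of the difference is uncertain. BCL2, the survival gene, measured 7.56, 7.94 and 7.95 in the DOHH2 arrays, against 10.28, 9.85 and 9.82 in the TMD8 arrays. The difference was -2.17 ± 0.17 (limma adjusted p = 1.0e-07), and its further probes disagreed, with -2.35 and 0.03. MCL1 (-1.01 ± 0.14), BCL2A1 (-1.42 ± 0.27) and BAX (-0.80 ± 0.14) were lower, with -0.12 from a second MCL1 probe and -0.10 from a second BAX probe. PMAIP1, which encodes NOXA (1.55 ± 0.11), and BCL2L2 (1.34 ± 0.094) were higher. BCL2L1, which encodes BCL-XL, did not pass the test (-0.18 ± 0.18, limma adjusted p = 0.436).

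Of 31 mitosis genes 2 (6.45%) were higher and 16 (51.6%) lower in DOHH2, 2 of them by 2-fold, with a median of -0.42. AURKA, the kinase Aurora A named in the title of the series, measured 10.09, 10.07 and 10.17 in the DOHH2 arrays, against 11.21, 11.26 and 11.26 in the TMD8 arrays. The difference was -1.13 ± 0.088 (limma adjusted p = 9.8e-08), and PLK1, another mitotic kinase, measured 7.13, 6.81 and 7.23 in DOHH2 and 8.19, 8.28 and 8.35 in TMD8 (-1.22 ± 0.11). Of 34 DNA replication genes 12 (35.3%) were higher and 4 (11.8%) lower, with a median of 0.093. Over all genes the shares were 26.1% higher and 27.7% lower. In the ST5589 arrays the median was -0.15 for the mitosis genes and -0.11 for the replication genes, so the replication median lay on the other side of 0 there. GINS2 of the replicative helicase (1.21 ± 0.12) and RFC2, a subunit of the clamp loader (1.29 ± 0.13; further probe 0.41), were higher, and POLD1, the catalytic subunit of polymerase delta, was lower (-0.99).

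MYC was not called, but it gained a call in 1 of 19 alternatives, over which its difference ran from 0.14 to 0.59. It measured 11.41, 11.58 and 11.64 in DOHH2 and 11.19, 11.49 and 11.32 in TMD8 (0.21 ± 0.11, limma adjusted p = 0.135), although a second probe gave 0.98, and of 43 genes of MYC and ribosome biogenesis 10 were higher and 7 lower, 39.5% called against 53.8% of all genes. CDKN1A, the inhibitor p21, was at -0.048 ± 0.19 (limma adjusted p = 0.847) and MDM2, the ligase of p53, at 0.22 ± 0.14 (limma adjusted p = 0.217), neither called. Of 31 genes of the p53, INK4 and CIP/KIP group 6 (19.4%, against 26.1% of all genes) were higher and 9 (29%, against 27.7%) lower. CDK6 was higher by 1.25 and RB1, the retinoblastoma protein, lower (-0.98), and CCND1, cyclin D1, was not well above background in DOHH2 and at least 1.8-fold lower there. GADD45A (2.40 ± 0.13) and TP53INP1 (1.82 ± 0.14) were higher.

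Of 22 chromatin regulators that are mutated in B cell lymphoma, 4 were higher and 5 lower (40.9% called, against 53.8% of all genes). DNMT3B, a DNA methyltransferase, was higher by 2.10. H1-2, a linker histone, measured 8.36, 8.14 and 7.81 in the DOHH2 arrays, against 12.20, 12.06 and 12.09 in the TMD8 arrays, a difference of -4.01 ± 0.19 (limma adjusted p = 5.9e-10). SMARCA2, the BRM ATPase (-1.51), and BCL11A, a zinc finger repressor of B cells (-1.88; further probes -1.72 and -0.77), were lower. Of 27 Wnt, Notch, Hedgehog and TGF-beta genes, 9 (33.3%, against 26.1% of all genes) were higher and 13 (48.1%, against 27.7%) lower. NOTCH2, the receptor of marginal zone B cells, was at least 2.57-fold lower in DOHH2, and LEF1, a Wnt factor of precursor B cells, was lower (-1.41). Of 34 cytokines and secreted factors, 7 (20.6%, against 26.1% of all genes) were higher and 19 (55.9%, against 27.7%) lower. S100A6 was lower (-2.27) while S100A11 and S100A4, relatives of the same calcium-binding family, were higher by 1.52 and 1.27. LGALS1 was higher by 1.15 and LGALS3, another galectin, at least 4.51-fold lower, though a second LGALS3 probe gave -0.26.

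**Figure D4:**
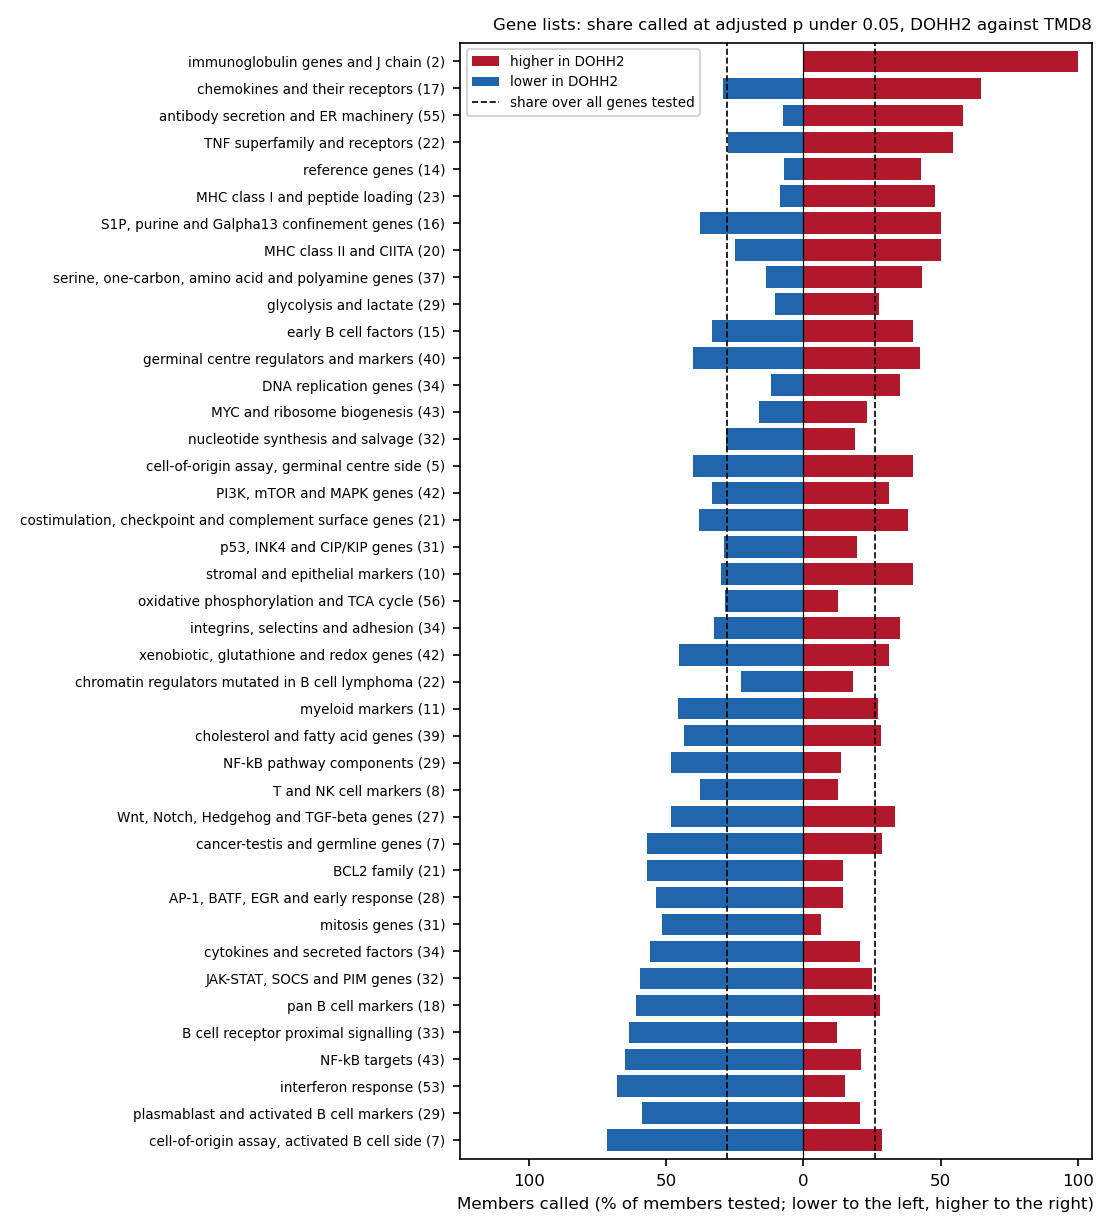
Share of the tested members of each gene list (number tested in brackets) called higher in DOHH2 (red, to the right) or lower in DOHH2 (blue, to the left) at a limma adjusted p under 0.05, ordered by the median log2 difference. Dashed lines mark the shares over all genes, 26.1% higher and 27.7% lower; the interferon list reaches 67.9% lower and the antibody secretion list 58.2% higher.

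The line difference was measured again in the 6 ST5589 arrays, which share no array with the DMSO comparison, though they share the chips and the error estimate with it. There 6178 genes were called (54.1%), 2984 (26.1%) higher in DOHH2 and 3194 (28%) lower. At least 2-fold were 1573 (13.8%), 724 (6.34%) higher and 849 (7.43%) lower. Of the 690 genes at least 2-fold higher in DOHH2 under DMSO, 626 were called so again, 90.7% of the DMSO set and 86.5% of the 724 of the ST5589 set. Of the 844 lower genes, 745 were called again, 88.3% of the DMSO set and 87.8% of the 849 of the ST5589 set. The sign was the same for 690 of 690 and 843 of 844. Across the 11419 genes the differences had a Pearson r of 0.975, as a description, since genes are not replicates. The JCHAIN difference was 6.59 under ST5589, against 6.32 under DMSO. IRF4 was at -1.09, against -1.15, and ISG15 at -3.22, against -3.13. For CT45A3 the values were -6.33 and -7.28, and the ST5589 value contains the DOHH2 array that carried TMD8 signal.

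**Figure D5:**
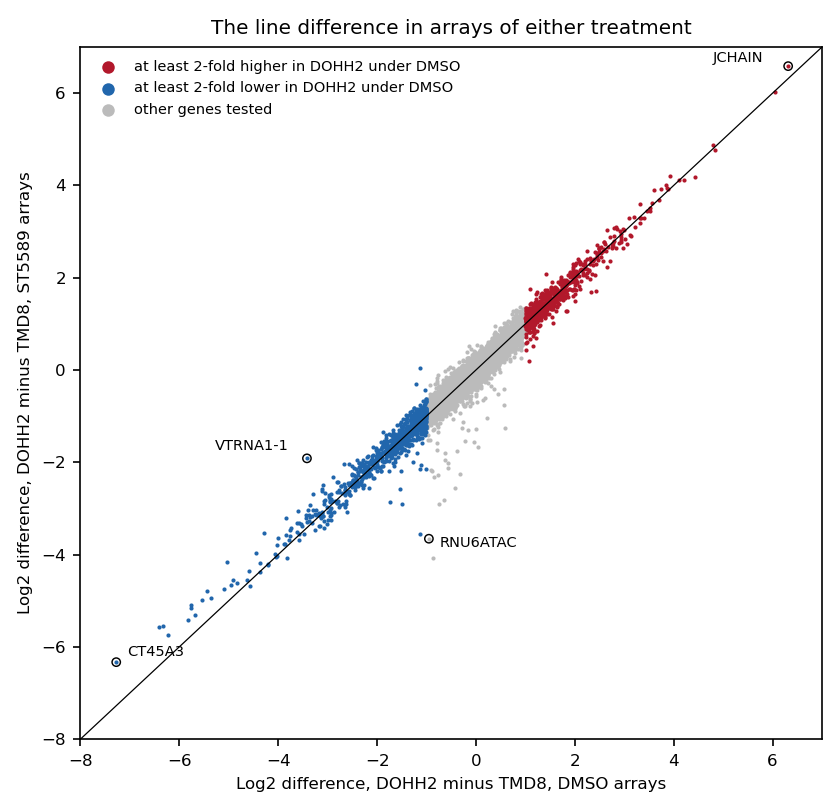
Log2 difference between DOHH2 and TMD8 for each gene in the 6 DMSO arrays (horizontal axis) and in the 6 ST5589 arrays (vertical axis); the line marks equal differences, and red and blue points are genes at least 2-fold higher or lower in DOHH2 under DMSO. The points follow the line (Pearson r 0.975), and RNU6ATAC and VTRNA1-1, the 2 genes whose difference depended on treatment, lie away from it.

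Tested directly, the line difference depended on treatment for 2 genes (0.0175%), 1 in each direction (0.00876%). Both are small non-coding RNAs, RNU6ATAC of the minor spliceosome and VTRNA1-1, a vault RNA. Scaling the arrays to a common median gave 0 such genes, and the count ran from 0 to 17 when arrays were left out, 17 without TMD8 ST5589 array 2. Under DMSO RNU6ATAC measured 6.69, 6.63 and 6.51 in DOHH2 and 7.79, 7.51 and 7.38 in TMD8, a difference of -0.95 ± 0.24 (limma adjusted p = 0.00467), and VTRNA1-1 measured 6.44, 6.67 and 6.38 in DOHH2 and 10.10, 9.93 and 9.70 in TMD8, a difference of -3.42 ± 0.14 (limma adjusted p = 1.3e-10). For the other genes a dependence on treatment was not detected with 3 arrays a group.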

How the data were processed

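RNA of 12 samples, 3 per line and treatment, was hybridised to single-colour Illumina beadchips. The authors deposited non-normalized probe intensity values, read with GenomeStudio per the submitters' processing notes (version not given), and a table of processed log2 values, for which no source names the normalization. From the intensities, 47231 probes per array were background-corrected by normexp (offset 50) and quantile-normalized over 12 arrays with limma 3.58.1 in R 4.3.3. A probe was above background at over 2.33 SD above the mode of its array, and 20535 probes above it in all 3 arrays of a group were kept. Of all probes 30113 had 1 gene symbol, 8 several and 17110 none here. The highest-mean probe stood for a gene, which gave 11419 genes.

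A 4-group limma model with Benjamini-Hochberg adjustment gave the line difference under DMSO, under ST5589 and their difference, and was tested on simulated data. The genes named are the 15 largest differences in each direction among called genes without overlap between the lines, up to 5 called members of each list in each direction by size, up to 5 genes in each direction whose difference depended on treatment, and a set of anchor genes. Members and lists were chosen with earlier results of these data known. For a probe not well above background in a group, the fold is a lower bound: the brighter group's mean against, per array, the higher of the dim probe and the lowest signal above background. Promoters are those of RefSeq (GRCh38.p14). Alternatives changed scaling, background, offset, filter, probe rule, fit, replicate block and arrays. The number of arrays limits the precision.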

Additional observations from a re-analysis of the deposited data

Results flagged for a closer look

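The difference between DOHH2 and TMD8 itself differed between treatments for 2 genes by an interaction term in limma. For RNU6ATAC, a small nuclear RNA of the minor spliceosome, the line difference was -3.66 under ST5589 and -0.95 under DMSO, so the difference of the differences was -2.71 ± 0.35 (limma adjusted p = 0.0148). For VTRNA1-1, a vault RNA, it was -1.92 under ST5589 and -3.42 under DMSO, a difference of 1.503 ± 0.19 (limma adjusted p = 0.0148).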

How the results depend on the processing

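The DMSO count of 6149 genes moved by over 1.5 times only with arrays scaled to a common median (3923, of which 42.6% were higher in DOHH2, against 48.5%), and the ST5589 count likewise (3749, against 6178). Leaving out arrays gave 5372 to 6668 genes under DMSO and 5452 to 6336 under ST5589. The 2-fold count of 1534 ran from 1056 (above background in all 12 arrays) to 2244 (offset 16). The 2 genes whose line difference depended on treatment became 0 under common-median scaling, 1 with the authors' deposited log2 values, 1 without background correction, 4 with offset 16, and 0 to 17 with arrays left out. CD58 turned to -0.061 under common-median scaling and -0.0089 with the mean of probes, and ran from -0.083 to 0.13 with arrays left out. CDKN1A turned to 0.0089 with the mean of probes and ran from -0.36 to 0.074 with arrays left out, BCL2L1 from -0.32 to 0.14 and ACTB from -0.28 to 0.011. HDAC9 turned to -0.0013 where all 12 arrays had to be above background. Of 366 called genes of the named set, 310 kept their call in every alternative and 55 lost it in some. HDAC9 also lost its call, with that turned sign (limma adjusted p = 0.994). Of the genes described above, the call was lost in 2 alternatives for IRF1 and SEL1L and in 1 for EZH2, IL10, CHUK, BIRC2, GNA13 and CIITA.

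The fit with the replicate number as a block gave 5981 genes under DMSO (1534 past 2-fold), 5988 under ST5589 and 2 for the dependence on treatment. Deviations of genes from their group means were correlated between arrays of the 2 lines. Same-numbered arrays gave r = -0.322, -0.337 and -0.101, and differently numbered arrays -0.203 to 0.331. Deviations from a mean of 3 arrays constrain each other, so these values cannot settle whether the numbers pair the arrays. Leaving out both DMSO arrays numbered 1, or the DOHH2 ST5589 array with TMD8 signal, was chosen after seeing the data.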

Other observations

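Early response genes, which are transcribed within minutes of a stimulus, were mostly lower in DOHH2. Of 28 tested, 4 (14.3%) were higher and 15 (53.6%) lower, 10 of them by at least 2-fold, against 26.1% and 27.7% of all genes. EGR1, a zinc finger factor that ERK signals induce, measured 6.74, 6.69 and 6.74 in the DOHH2 arrays, against 9.43, 9.78 and 9.81 in the TMD8 arrays. The arrays did not overlap, as for 59% of all genes, and the log2 difference was -2.95 ± 0.13 (limma adjusted p = 2.8e-10). ATF3, a stress-induced factor, was at -2.51 ± 0.11, and KLF6 at -2.27 ± 0.15. RHOB, a small GTPase of early response, was not well above background in TMD8 and at least 1.49-fold higher in DOHH2.

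In a list of cancer-testis and germline genes other than CT45A and MAGEA, 2 (28.6%) were higher and 4 (57.1%) lower of 7 tested. The shares of all genes were 26.1% and 27.7%. The lower members were PRAME, MAGED1, MAGEH1 and PAGE5. Further probes gave -1.24 and -0.01 for MAGED1 and 0.04 for MAGEH1. Whether each member is limited to germ cells was not tested. PRAME, a repressor of retinoic acid receptor signalling, measured 6.10, 6.31 and 6.16 in the DOHH2 arrays, against 9.96, 10.05 and 10.09 in the TMD8 arrays, and was above background in 1 of 3 DOHH2 and 3 of 3 TMD8 arrays. The log2 difference was -3.85 ± 0.12 (limma adjusted p = 1.5e-11), with -2.48 and -0.36 from further probes. DDX43, a helicase of the testis, was at least 1.93-fold higher in DOHH2. All 3 tested glutathione transferases of the GSTM family were lower in DOHH2, with a median of -3.75, but a second GSTM2 probe gave -0.31. Of 6 metallothioneins 5 were lower, with a median of -1.04. The share of all genes that were lower was 27.7%. GSTM1 and GSTM2 are near-identical, and whether probes of either family report other members was not tested. The members may therefore not be separate observations.

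Genes of other cell types were found in both lines. Of 8 tested genes of a T and NK cell list, 1 (12.5%) was higher and 3 (37.5%) lower in DOHH2. Of 11 myeloid genes 3 (27.3%) were higher and 5 (45.5%) lower, and of 10 stromal and epithelial genes 4 (40%) and 3 (30%). Over all genes the shares were 26.1% and 27.7%, so the genes named next are single members of lists without a common direction. CD247, the zeta chain of the T cell receptor, measured 8.22, 8.00 and 8.04 in the DOHH2 arrays, against 6.34, 6.45 and 6.23 in the TMD8 arrays, a difference of 1.75 ± 0.10. TYROBP, a signalling adaptor of myeloid and NK cells, was at least 3.95-fold lower in DOHH2, and CDH1, the epithelial cadherin, at least 8.14-fold lower. S100A8, a calcium-binding protein of myeloid cells, was at least 2-fold higher. The part of other cells in these values was not tested.

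Of 14 genes often used as references for expression, 6 (42.9%) were higher and 1 (7.14%) lower in DOHH2, with a median of 0.31. Over all genes the shares were 26.1% and 27.7% and the median -0.02. PPIA, cyclophilin A, was higher by 1.09, and GAPDH, a glycolytic enzyme, by 0.43. SDHA, a subunit of complex II, was lower (-0.64). ACTB, beta actin, did not pass the test (-0.18 ± 0.14, limma adjusted p = 0.29).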
